A study of Mus musculus with 14 samples.

Results

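Skeletal muscle and satellite cell genes were followed across 4 populations of cells sorted from fetal mouse limbs. The set holds 38 genes, taken from a list of names and matched by gene symbol: 7 progenitor and myogenic factors, 23 sarcomere genes, 6 genes of the neuromuscular synapse, excitation and calcium handling, and the cytoskeletal and energy genes Des and Ckm. All 38 were found among the 21734 named genes on the arrays. The cells came from limbs of C57BL/6 embryos at embryonic day 16.5 and were separated by fluorescence-activated cell sorting on 3 surface proteins, after enzyme digestion and lysis of red blood cells. Every population was CD9+. The labels call them osteochondroprogenitor (OCP) populations. Cells without Thy1 formed OCP1 when they were CD73+ and OCP2 when they were CD73-, with 3 arrays each. Cells with Thy1 formed OCP3 when they were CD73- and OCP4 when they were CD73+, with 4 arrays each. No group carried a transgene or a treatment in the labels. Whether replicates are different embryos, litters or sorts is not stated, so the p-values rest on a spread that may be only technical.

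In limb muscle, Pax3 and Pax7 mark muscle progenitors, Myf5 and Myod1 commit cells to the myogenic lineage, and Myog and Myf6 act as the cells differentiate and fuse. Differentiated fibres then make the sarcomere, in which actin-based thin filaments with troponin slide along myosin thick filaments between Z-discs. Satellite cells are the Pax7-expressing progenitors that stay beside the fibres and later repair them, and Cdh15 (M-cadherin) is one of their surface proteins.

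Expression was read on 14 Affymetrix Mouse Gene 1.0 ST arrays as log2 intensity, and differences are log2 differences between group means. Array medians lay between 328.1 and 346.8 intensity units, and the correlation over genes was 0.9955 to 0.9979 within groups against 0.9843 to 0.9945 between them. The transcripts of both sort proteins that differ between the groups followed the gates: Nt5e, which encodes CD73, averaged 12.29 and 13.19 in OCP1 and OCP4 against 9.30 and 9.46 in OCP2 and OCP3, and Thy1 averaged 12.60 and 13.22 in OCP3 and OCP4 against 9.33 and 9.60 in OCP1 and OCP2. Of the label's 2 lineages, the summed intensity of 8 cartilage markers was 73870 to 89000 in OCP1 and 39780 to 49670 in OCP2. It was 11660 to 17020 in OCP3 and 13120 to 22420 in OCP4, which overlapped. Osteoblast markers, 6 in number, summed to 41160 to 43160 in OCP1 and 29610 to 32710 in OCP2. In OCP3 they summed to 38940 to 41360, and in OCP4 to 33260 to 37110. Of those 6, the late marker Bglap had group means of 8.08 to 8.21, and Col1a1, which encodes a collagen of bone and other connective tissue, 14.39 to 14.66. Of the 38 muscle genes, 28 were above the array median on at least 3 arrays. The other 10 were Pax3, Myf6, Myh1, Myh7, Myh8, Myom2, Tcap, Myoz2, Xirp1 and Cacna1s, which were above the median on fewer than 3 arrays.

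Sequences upstream of the transcription start are shown for 5 muscle genes. Chrng and Myh3 were highest on the OCP2 arrays, Chrna1 and Des departed from that order, and Myog, which passed no test between groups, is shown as the differentiation factor of the set. They are the 250 bases before the start, 5′ to 3′ on the gene's own strand, from RefSeq on GRCm38.p6, and 28 of the 38 genes had an entry in that table. Capitals mark the E-boxes, the CANNTG motif bound by the myogenic factors Myod1, Myf5, Myog and Myf6, and a TATAAA box in Myh3.
Chrna1, chr2:73580339-73580588, minus strand: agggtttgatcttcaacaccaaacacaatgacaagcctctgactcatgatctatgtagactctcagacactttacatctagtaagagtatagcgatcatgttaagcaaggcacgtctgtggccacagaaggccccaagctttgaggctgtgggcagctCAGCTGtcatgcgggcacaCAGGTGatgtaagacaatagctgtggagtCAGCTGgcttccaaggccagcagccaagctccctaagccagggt
Chrng, chr1:87205561-87205810, plus strand: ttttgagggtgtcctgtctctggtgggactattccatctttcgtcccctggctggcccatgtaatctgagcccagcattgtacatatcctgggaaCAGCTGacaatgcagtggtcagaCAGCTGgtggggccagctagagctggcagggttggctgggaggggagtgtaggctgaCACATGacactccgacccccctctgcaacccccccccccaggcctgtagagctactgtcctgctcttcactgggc
Myog, chr1:134289754-134290003, plus strand: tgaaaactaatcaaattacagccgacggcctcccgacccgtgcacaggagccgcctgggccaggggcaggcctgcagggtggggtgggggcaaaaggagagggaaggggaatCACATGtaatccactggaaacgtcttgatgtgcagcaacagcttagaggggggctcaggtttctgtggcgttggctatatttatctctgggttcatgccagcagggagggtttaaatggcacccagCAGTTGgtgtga
Myh3, chr11:67078050-67078299, plus strand: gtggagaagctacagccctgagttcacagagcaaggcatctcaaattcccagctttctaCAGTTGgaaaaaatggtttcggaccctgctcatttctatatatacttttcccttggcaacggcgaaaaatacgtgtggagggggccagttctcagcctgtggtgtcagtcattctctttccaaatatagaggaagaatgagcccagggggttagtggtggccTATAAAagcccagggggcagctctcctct
Des, chr1:75360042-75360291, plus strand: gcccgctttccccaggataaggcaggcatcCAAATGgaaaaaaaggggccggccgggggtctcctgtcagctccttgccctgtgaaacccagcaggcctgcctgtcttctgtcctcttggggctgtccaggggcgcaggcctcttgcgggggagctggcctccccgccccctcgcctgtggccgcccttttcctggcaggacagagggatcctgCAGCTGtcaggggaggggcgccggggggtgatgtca
Chrna1 held 2 copies of CAGCTG and 1 of CAGGTG in these bases, and Chrng held 2 copies of CAGCTG. Des held 1 CAGCTG, while Myog and Myh3 held E-boxes with other inner bases only. Over the 31 entries for the muscle genes, 14 (45.2%) held a CAGCTG, against 13% of all 32851 entries of the same length. The 31 entries came from 28 genes, and entries of the same gene can overlap. The same CAGCTG of Tnni1 stood in both of its entries and was counted in each. Entries of all genes were counted in the same way. A CAGGTG stood in 7 entries (22.6%, against 17.2% of all), and any CANNTG, which includes both, in 26 (83.9%, against 66.2%). The MEF2 site stood in 4 entries (12.9%, against 2.92%), the CArG box in 2 (6.45%, against 1.47%) and TATAAA in 4 (12.9%, against 7.59%). Both strands were searched, except for TATAAA. A match is a description of the letters and not a binding site.

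The muscle genes were highest in OCP2, the population without CD73 and Thy1. OCP2 had the highest group mean for 33 of the 38 genes, where it had the highest mean for 23.1% of all genes. The F-test across the 4 groups called 28 of the 38, against 39.5% of all genes. Every OCP2 array lay above every array of the other groups for 14 of them, against 2.95% of all genes: Pax7, Myf5, Cdh15, Tnnc1, Tnnc2, Neb, Myh3, Myh8, Myom2, Ttn, Actn2, Myoz2, Chrng and Ryr1. The 5 genes with their highest mean elsewhere were Myh1 and Myh7 (OCP1), Des (OCP3), and Tcap and Chrna1 (OCP4). OCP2 had the highest and OCP4 the second highest mean for 17 genes, against 7.19% of all genes. Among genes with OCP2 highest, OCP4 was second for 17 of the 33, and for 1562 of 5017 over all genes. OCP1 was second for 13 of the 33, and the median OCP4 minus OCP1 difference over the 38 genes was 0.03. In sorted bulk samples, fewer cells of a type and less RNA per cell cannot be told apart.

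**Figure D1:**
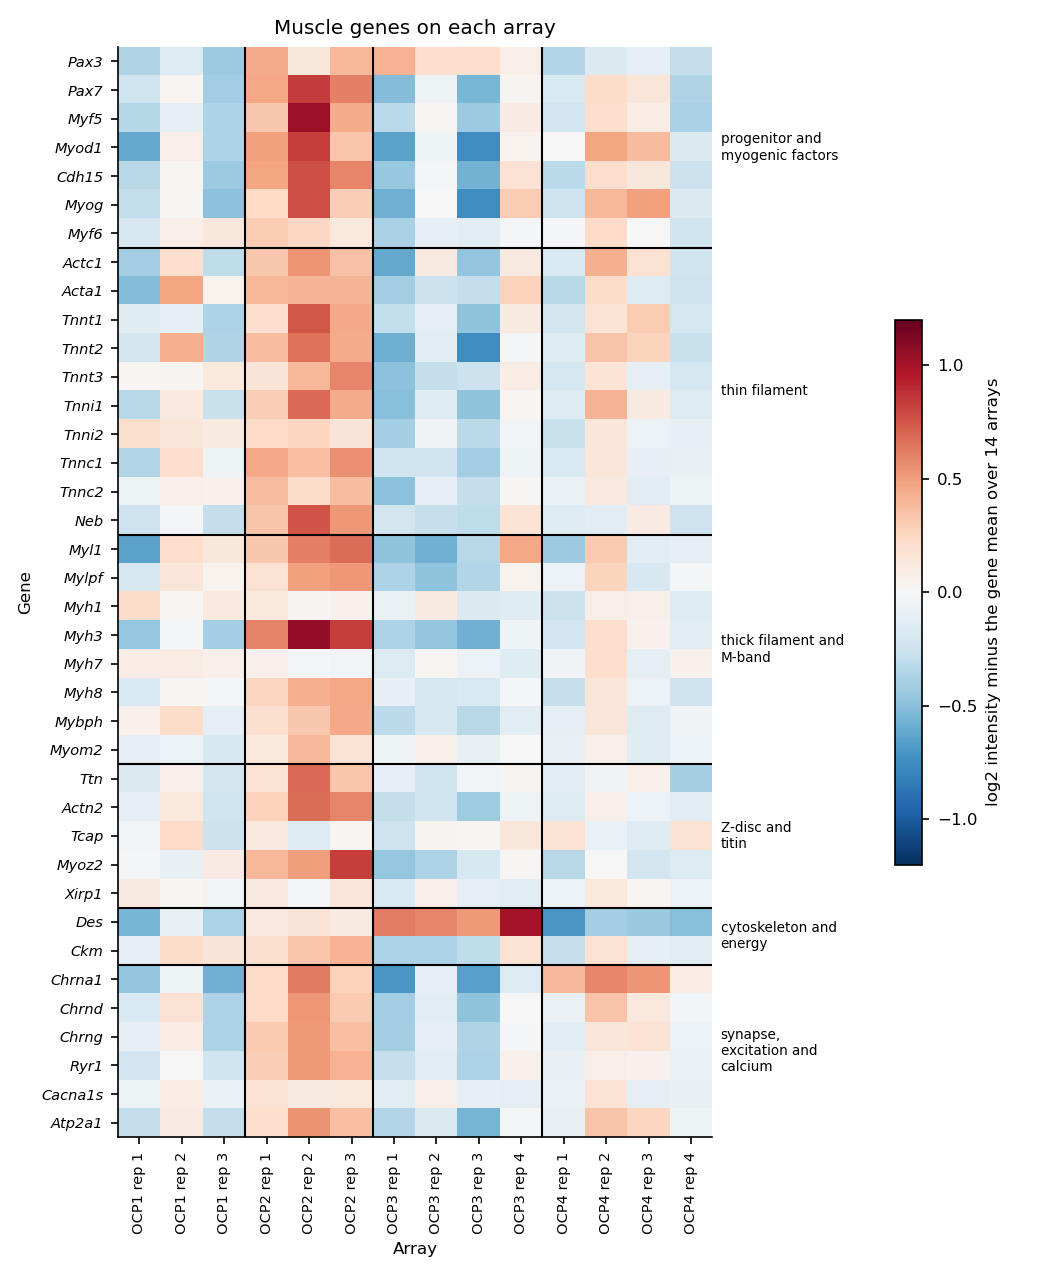
Rows are the 38 muscle genes grouped by role, columns are the 14 arrays, and colour is the log2 intensity minus the gene's mean over all arrays. The 3 OCP2 columns stand above the others for most rows, with Des, Pax3 and Chrna1 as departures.

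In limma's test with Benjamini-Hochberg adjustment over all 21734 genes, 20 of the 38 genes were higher in OCP2 than in OCP1, against 6.56% of all genes, and none was higher in OCP1 (4.43% of all). At an unadjusted p below 0.05, these counts were 29 and 0. The shares of all genes called, here and below, hold for the adjusted p alone. At the unadjusted threshold no share of all genes was taken. Against OCP3, 27 were higher in OCP2 (9.48% of all genes) and 1, Des, was higher in OCP3 (6.63%). Against OCP4, 21 were higher in OCP2 (13.8% of all) and none in OCP4 (10.4%), with 26 and 0 at an unadjusted p below 0.05. These 3 comparisons share the OCP2 arrays, so they are not independent of each other. In either direction, the counts were 20, 28 and 21, against 11%, 16.1% and 24.2% of all genes. Leaving out single arrays moved the first count most: without OCP1 replicate 1 or without OCP2 replicate 2 it was 10, and without OCP1 replicate 3 it was 12.

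**Figure D2:**
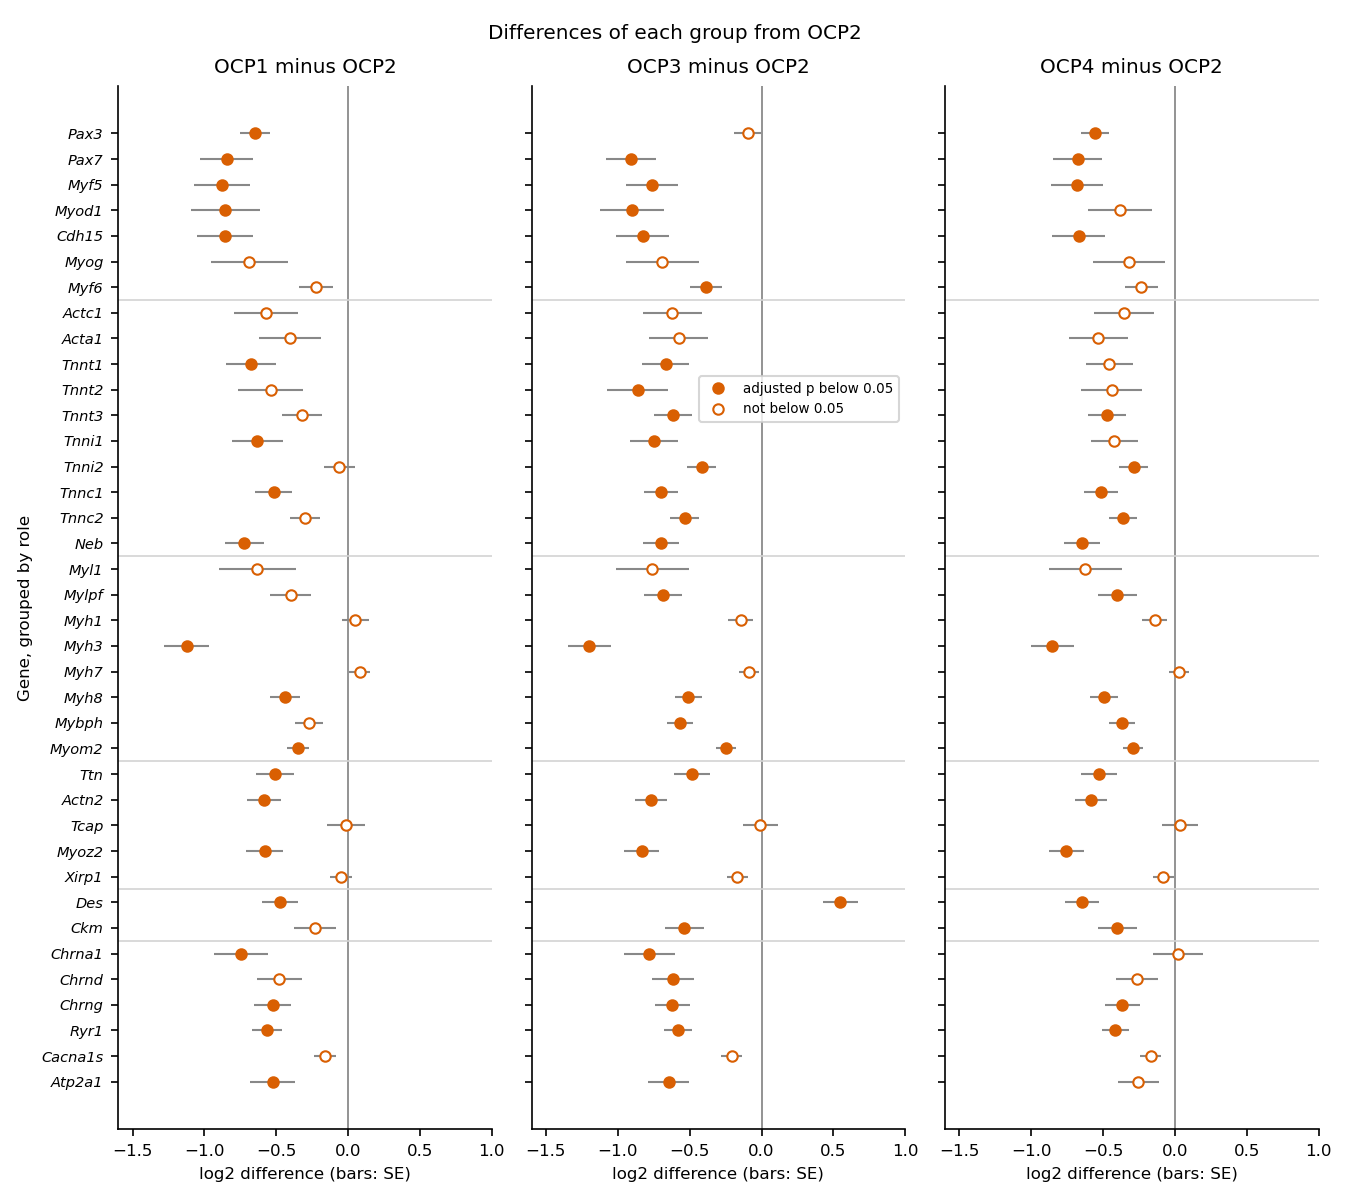
Points are log2 differences of OCP1, OCP3 and OCP4 from OCP2 for each of the 38 genes, bars are standard errors, and filled points have an adjusted p below 0.05. Nearly all points lie left of 0, and Des in OCP3, at 0.55, is the filled point on the right.

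Markers of some other cell types also differed between the groups, not all in the order of the muscle genes. The summed intensity of 12 endothelial markers was 18520 to 30040 in OCP2 and 9899 to 11100 in OCP1. It was 16750 to 22040 in OCP3 and 13340 to 16150 in OCP4. By the same test, 10 of the 12 were higher in OCP2 than in OCP1 (6.56% of all genes). Erg alone was higher in OCP1 (4.43% of all genes), by 0.84 (limma adjusted p = 0.00038). Sox18 averaged 11.26 in OCP4 against 10.01 in OCP2. The Schwann cell and neural crest markers, 10 in number, summed to 18010 to 21450 in OCP2 and 17800 to 21040 in OCP3, against 8502 to 9822 in OCP1 and 8408 to 9828 in OCP4. Blood cell markers summed to 1870 to 3778 over all groups, and none of the 6 was called against OCP2. Array intensities do not fall to 0, so these sums do not show that a cell type was present. The part of these cells in the muscle gene differences was not tested.

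Of the 7 progenitor and myogenic factors, 5 passed the test as lower in OCP1 than in OCP2, 5 in OCP3 and 4 in OCP4, against the same 6.56%, 9.48% and 13.8% of all genes. Pax7 read 10.05, 10.43 and 10.20 on the OCP2 arrays, 9.35, 9.62 and 9.17 in OCP1, 9.07, 9.53, 9.05 and 9.62 in OCP3, and 9.41, 9.81, 9.74 and 9.23 in OCP4. All OCP2 arrays thus lay above all others. Pax7 was 1.79-fold higher in OCP2 than in OCP1 (log2 difference -0.84 ± 0.18, SE; limma adjusted p = 0.00827), 1.88-fold higher than in OCP3 (adjusted p = 0.00208) and 1.60-fold higher than in OCP4 (adjusted p = 0.00951).

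Myf5 read 9.16, 9.86 and 9.28 in OCP2, and between 8.40 and 9.04 on the other 11 arrays. Cdh15 read 10.57, 10.87 and 10.69 in OCP2, and between 9.53 and 10.31 elsewhere. Neither gene's OCP2 arrays overlapped any other group. Myf5 differed from OCP2 by -0.88 in OCP1, -0.76 in OCP3 and -0.68 in OCP4 (limma adjusted p = 0.00879, 0.00963 and 0.0122), and Cdh15 by -0.86, -0.83 and -0.67 (limma adjusted p = 0.0104, 0.0059 and 0.0141). Without OCP2 replicate 2, the highest array for both, the adjusted p passed 0.05 for Myf5 against OCP3 (0.0524) and OCP4 (0.0746), for Cdh15 against OCP1 (0.0539) and OCP4 (0.0656), and for Pax7 against OCP4 (0.0524).

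Myod1 followed the same order with wider spread. It read 10.37, 10.70 and 10.21 in OCP2, 9.26, 9.96 and 9.50 in OCP1, 9.23, 9.83, 9.13 and 9.92 in OCP3, and 9.87, 10.35, 10.25 and 9.70 in OCP4. The OCP4 arrays overlapped those of OCP2, and the OCP1 and OCP3 arrays did not. Myod1 was 1.81-fold higher in OCP2 than in OCP1 (limma adjusted p = 0.0334) and 1.87-fold higher than in OCP3 (0.0122), and it differed from OCP4 by -0.39 ± 0.22 (0.258). The OCP1 call was lost, up to an adjusted p of 0.156, with another variance prior and without OCP1 replicate 1 or 3 or OCP2 replicate 1 or 2, and the OCP3 call without OCP2 replicate 2 (0.062).

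Myog, which drives differentiation, read 9.73, 10.27 and 9.79 in OCP2, and its values overlapped those of OCP3 and OCP4. Its differences from OCP2 were -0.69 in OCP1, -0.69 in OCP3 and -0.32 in OCP4, with standard errors of 0.25 to 0.27, and none passed the test (limma adjusted p = 0.128, 0.0829 and 0.428). The OCP1 difference passed with only the arrays of those groups in the fit (0.0391), and the OCP3 one without OCP3 replicate 4 (0.0268). Myf6 was dim, at 7.12 to 7.81 on all arrays, and passed only against OCP3 (-0.39, adjusted p = 0.0313), a call lost (up to 0.119) with the replicate block, with array weights, and without OCP2 replicate 1 or 2 or OCP3 replicate 1 or 3.

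**Figure D3:**
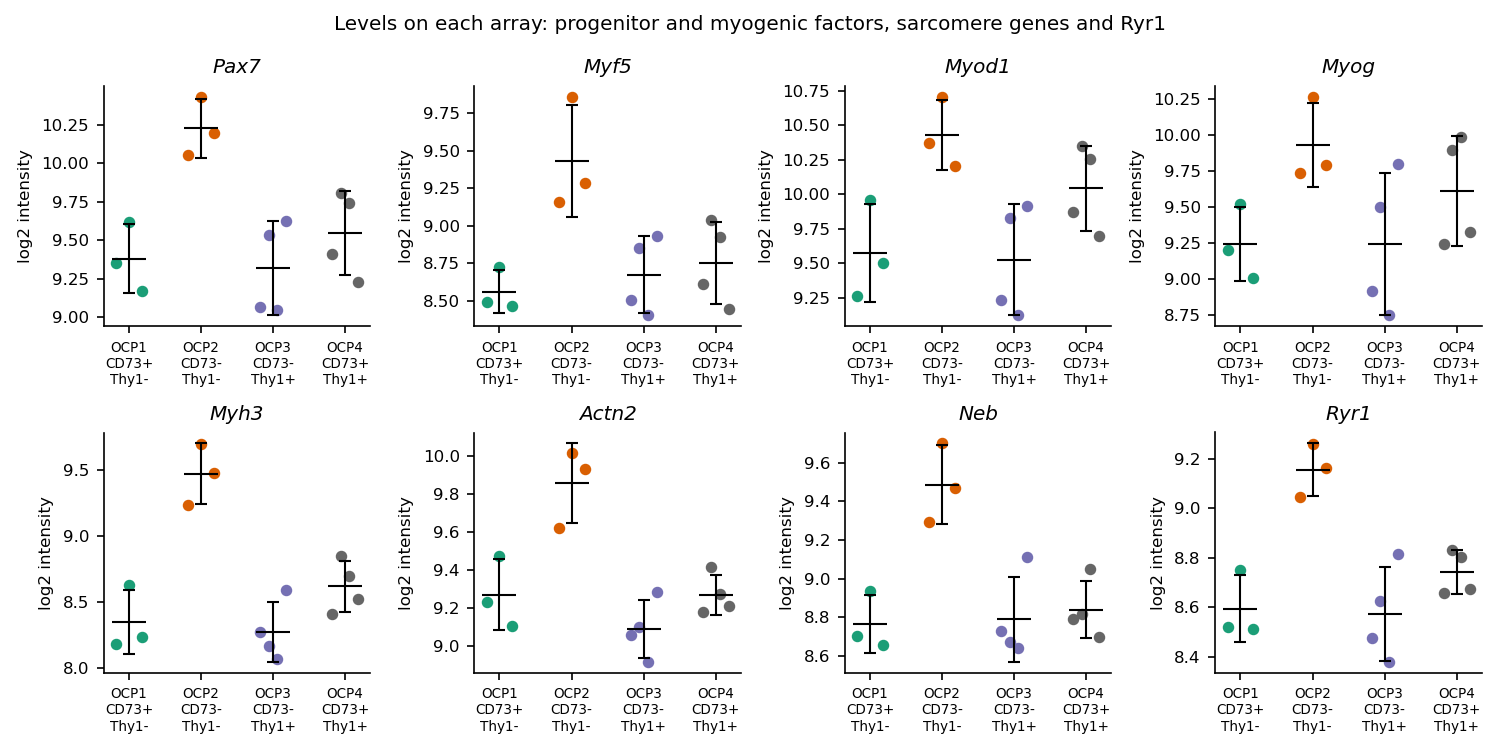
Points are log2 intensities on single arrays for Pax7, Myf5, Myod1, Myog, Myh3, Actn2, Neb and Ryr1, and bars are the group mean and SD. OCP2 is the highest group in each panel, while the Myod1 and Myog points of OCP4 reach into the OCP2 range.

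Of the 23 sarcomere genes, 10 passed the test as lower in OCP1 than in OCP2, 16 in OCP3 and 13 in OCP4, where 6.56%, 9.48% and 13.8% of all genes did. In OCP1 the other 13 did not pass. Myh3, the embryonic myosin heavy chain, differed most among the sarcomere genes. It read 9.24, 9.70 and 9.48 in OCP2, 8.18, 8.62 and 8.23 in OCP1, 8.27, 8.17, 8.06 and 8.59 in OCP3, and 8.41, 8.84, 8.69 and 8.52 in OCP4. Every OCP2 array lay above every other array. Myh3 was 2.18-fold higher in OCP2 than in OCP1 (-1.12 ± 0.16, SE; limma adjusted p = 0.000358), 2.29-fold higher than in OCP3 (5.47e-05) and 1.81-fold higher than in OCP4 (0.000544), and these calls held under every alternative run.

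Among the other myosins, the perinatal Myh8 differed from OCP2 by -0.44, -0.51 and -0.49 in OCP1, OCP3 and OCP4 (limma adjusted p = 0.0117, 0.00182 and 0.00128). The OCP1 call was lost without OCP1 replicate 1 or OCP2 replicate 2 (up to 0.0674). The adult fast myosin Myh1 lay between 6.37 and 6.84, and the slow myosin Myh7 between 7.83 and 8.20, on all arrays. Neither of those adult forms passed the test in any pairwise comparison, and both were among the dim genes. The second Myh7 probe set, dimmer still, differed by -0.11 to 0.03 from OCP2.

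Of the 10 thin filament genes, 4 passed the test as lower in OCP1 than in OCP2, 8 in OCP3 and 5 in OCP4. The shares of all genes were 6.56%, 9.48% and 13.8%. Neb, which encodes the long ruler-like protein nebulin, read 9.29, 9.70 and 9.47 in OCP2 and between 8.64 and 9.11 elsewhere. Its differences from OCP2 were -0.72, -0.70 and -0.65 in OCP1, OCP3 and OCP4 (limma adjusted p = 0.00267, 0.0013 and 0.00127). The calcium-binding troponin Tnnc1 read 9.26 to 9.45 in OCP2 and 8.48 to 9.11 elsewhere, with differences of -0.52, -0.70 and -0.51 (limma adjusted p = 0.0158, 0.000846 and 0.00484). Its OCP1 call was lost without OCP1 replicate 1 or OCP2 replicate 3 (up to 0.0822).

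The muscle actins did not pass, though some of these differences lay near the threshold. Actc1, the form common in fetal muscle, differed from OCP2 by -0.57 in OCP1, -0.62 in OCP3 and -0.35 in OCP4 (limma adjusted p = 0.124, 0.0568 and 0.263). Acta1, the main actin of adult fibres, differed by -0.40, -0.58 and -0.53 (limma adjusted p = 0.291, 0.0744 and 0.0767). Actc1 passed against OCP3 under 8 of 22 alternatives (adjusted p 0.0184 to 0.157 over all 22) and against OCP1 under 1, and Acta1 passed against OCP3 under 5 (0.025 to 0.173) and against OCP4 under 6 (0.0112 to 0.176). In OCP1 the Acta1 arrays read 10.37, 11.37 and 10.93, so that a single array lay above all OCP2 arrays (11.29 to 11.30). Tnni2, the fast troponin I, read 9.58 to 9.73 over the arrays of OCP1 and OCP2, a difference of -0.06 ± 0.11 (limma adjusted p = 0.797), and differed from OCP2 by -0.42 in OCP3 (0.00991).

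At the Z-disc, 3 of 5 genes passed the test as lower than in OCP2 in each of the other groups. For OCP1, OCP3 and OCP4 the shares of all genes were 6.56%, 9.48% and 13.8%. Actn2, which crosslinks actin there, read 9.62, 10.02 and 9.93 in OCP2 and between 8.92 and 9.47 elsewhere. Its differences from OCP2 were -0.59 ± 0.12 (SE) in OCP1, -0.77 in OCP3 and -0.59 in OCP4 (limma adjusted p = 0.00492, 0.000221 and 0.00109). Myoz2, a calcineurin-binding Z-disc protein, read 8.04 to 8.47 in OCP2 and 7.17 to 7.74 elsewhere, with differences of -0.58, -0.83 and -0.76. No Actn2 or Myoz2 array of another group reached the OCP2 arrays, and their calls held under every alternative run.

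Ttn encodes titin, the spring between Z-disc and M-band, and its probe sets disagreed. The brightest set differed from OCP2 by -0.51, -0.48 and -0.53 in OCP1, OCP3 and OCP4 (limma adjusted p = 0.0239, 0.0162 and 0.00592), one dimmer set by -0.06, 0.00 and 0.04, and the other by -0.20, -0.32 and -0.25. With the mean of all 3 sets, none of these calls was kept. Tcap and Xirp1 were dim and passed in no pairwise comparison.

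Of the 6 genes of the synapse and of calcium handling, 4 passed as lower in OCP1 than in OCP2, 5 in OCP3 and 2 in OCP4. Of all genes, 6.56%, 9.48% and 13.8% did. Cacna1s, the voltage sensor of the muscle membrane, passed in no comparison. Ryr1, the calcium release channel, read 9.05, 9.26 and 9.17 in OCP2 and between 8.38 and 8.83 elsewhere. Its differences from OCP2 were -0.56, -0.58 and -0.41 in OCP1, OCP3 and OCP4 (limma adjusted p = 0.00262, 0.000738 and 0.00544), and these calls held under every alternative run. Chrng, the fetal gamma subunit of the acetylcholine receptor, read 8.77, 8.97 and 8.81 in OCP2 and 8.04 to 8.62 elsewhere. It differed by -0.53, -0.62 and -0.37 (limma adjusted p = 0.0171, 0.00251 and 0.0396); the OCP4 call was lost under 8 alternatives (up to 0.148), among them without OCP1 replicate 1, any OCP2 replicate, or OCP4 replicate 1 or 4, and the OCP1 call without OCP1 replicate 1 or 3 or OCP2 replicate 2 (up to 0.0809). Chrnd, the delta subunit, passed against OCP3 alone (-0.61, adjusted p = 0.0094); the difference between OCP1 and OCP2 (adjusted p = 0.066) passed under 5 of 22 alternatives.

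Chrna1, the alpha subunit of the same receptor, departed from this order in OCP4. It read 9.60, 9.80, 9.74 and 9.31 in OCP4, 9.44, 9.84 and 9.49 in OCP2, 8.74, 9.16 and 8.63 in OCP1, and 8.52, 9.12, 8.56 and 9.05 in OCP3. The OCP4 and OCP2 arrays overlapped, and both lay above all arrays of OCP1 and OCP3. Chrna1 was 1.74-fold higher in OCP4 than in OCP3 (0.80 ± 0.16, SE; limma adjusted p = 0.00171) and 1.71-fold higher than in OCP1 (0.00432), and it differed from OCP2 by 0.02 ± 0.18 (0.954). It was lower in OCP1 than in OCP2 (-0.75, limma adjusted p = 0.0187), a call lost without OCP1 replicate 1 or 3 or OCP2 replicate 2 (up to 0.0952), and lower in OCP3 (-0.78, 0.00678).

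Des encodes desmin, an intermediate filament of skeletal, cardiac and smooth muscle, and it was highest in OCP3. It read 11.39, 11.36, 11.29 and 11.78 in OCP3, 10.90, 10.94 and 10.89 in OCP2, 10.22, 10.69 and 10.39 in OCP1, and 10.08, 10.36, 10.33 and 10.27 in OCP4. Every OCP3 array lay above every other array, a pattern of 4.38% of all genes, and OCP2 lay above OCP1 and OCP4. Des was 2.29-fold higher in OCP3 than in OCP4 (limma adjusted p = 1.27e-06), 2.03-fold higher than in OCP1 (1.81e-05) and 1.46-fold higher than in OCP2 (0.00561), and it was lower in OCP4 than in OCP2 (-0.65, 0.00096). The 10 pericyte and smooth muscle markers, cells that also make desmin, summed to 72420 to 85400 in OCP3, 29990 to 33140 in OCP2, 21570 to 26300 in OCP1 and 23490 to 27700 in OCP4. All 10 were higher in OCP3 than in OCP4 (13.6% of all genes), and 7 than in OCP2 (6.63%). Against OCP1, 8 were higher in OCP3 (12.5% of all genes) and 1, Cspg4, was lower (11.9%). Their part in the level of Des was not tested.

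Pax3, one of the dim genes, was higher in both CD73- groups than in both CD73+ groups. It read 8.32, 8.01 and 8.27 in OCP2, 8.29, 8.08, 8.09 and 7.96 in OCP3, 7.51, 7.71 and 7.44 in OCP1, and 7.52, 7.71, 7.76 and 7.59 in OCP4. The OCP2 and OCP3 arrays overlapped, and all of them lay above every OCP1 and OCP4 array. Pax3 differed from OCP2 by -0.65 ± 0.10 in OCP1 (limma adjusted p = 0.000858), -0.56 in OCP4 (0.000512) and -0.10 in OCP3 (0.572), and it was lower in OCP4 than in OCP3 (-0.46, 0.00117). The summed Schwann cell and neural crest markers given above had the same 2 groups high, and Pax3 is also a neural crest gene. Sox10, for example, averaged 9.50 and 9.49 in OCP2 and OCP3 against 8.67 and 8.59 in OCP1 and OCP4. Not every marker did so. In OCP1, 8 of the 10 were lower than in OCP3 and 1, S100b, was higher, against 12.5% and 11.9% of all genes. S100b averaged 10.02 in OCP1, 9.64 in OCP2 and 9.27 in OCP3. Ngfr was lower in OCP3 than in OCP2 (-0.53, limma adjusted p = 0.000269). Their part in the level of Pax3 was not tested.

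**Figure D4:**
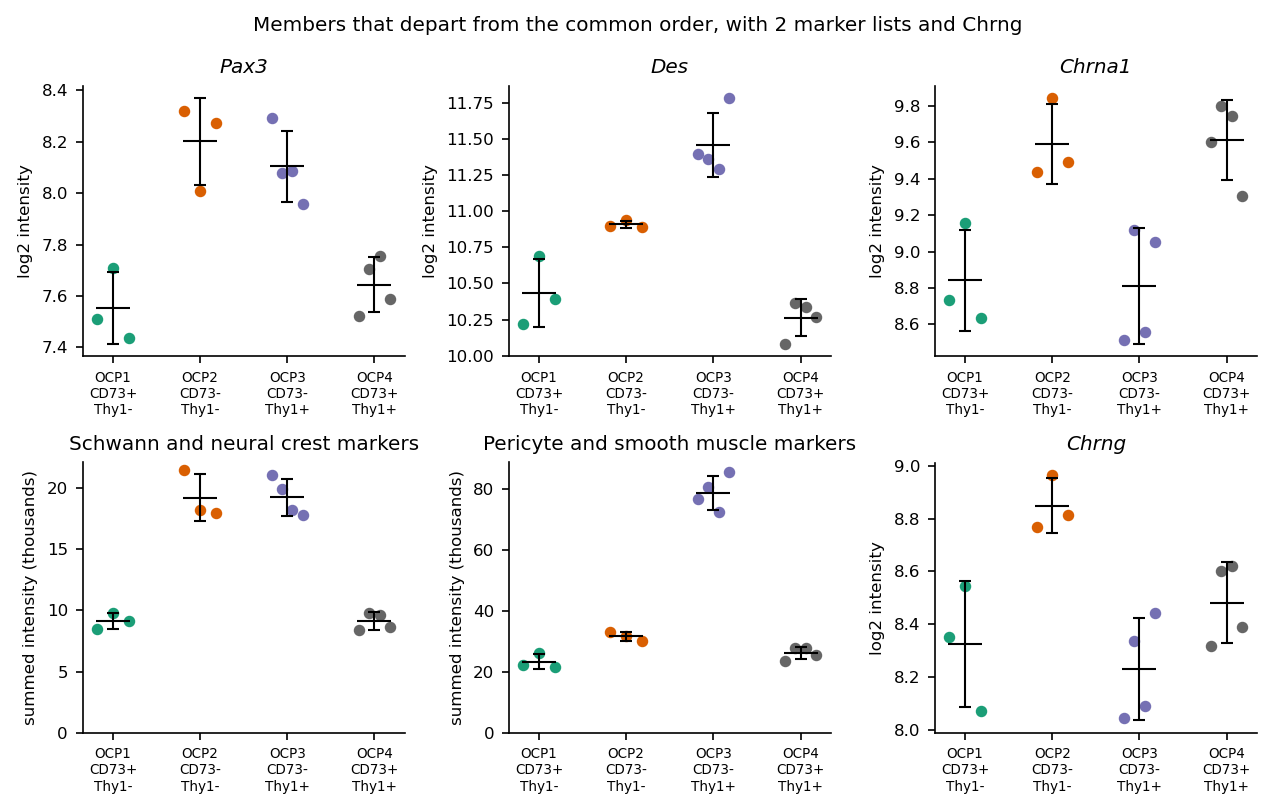
Points are single arrays with group mean and SD: log2 intensity of Pax3, Des, Chrna1 and Chrng, and the summed intensity of the Schwann and neural crest and of the pericyte and smooth muscle markers. Pax3 and the Schwann list are higher in OCP2 and OCP3 than in the other groups. Des and the pericyte list are highest in OCP3, and Chrna1 is as high in OCP4 as in OCP2 while Chrng is not.

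Set side by side, the progenitor factors and the sarcomere genes were shifted in the same direction. The median log2 difference from OCP2 in OCP1 was -0.84 over the 7 progenitor factors and -0.44 over the 23 sarcomere genes, against -0.01 over all genes. In OCP3 the medians were -0.76 and -0.62 (all genes -0.03), and in OCP4 they were -0.56 and -0.44 (all genes 0.01). The progenitor median lay further from 0 in each case, and the difference between the classes was not tested. Values of single sarcomere genes spanned that of the progenitor factors, from 0.08 for Myh7 to -1.12 for Myh3 in OCP1.

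**Figure D5:**
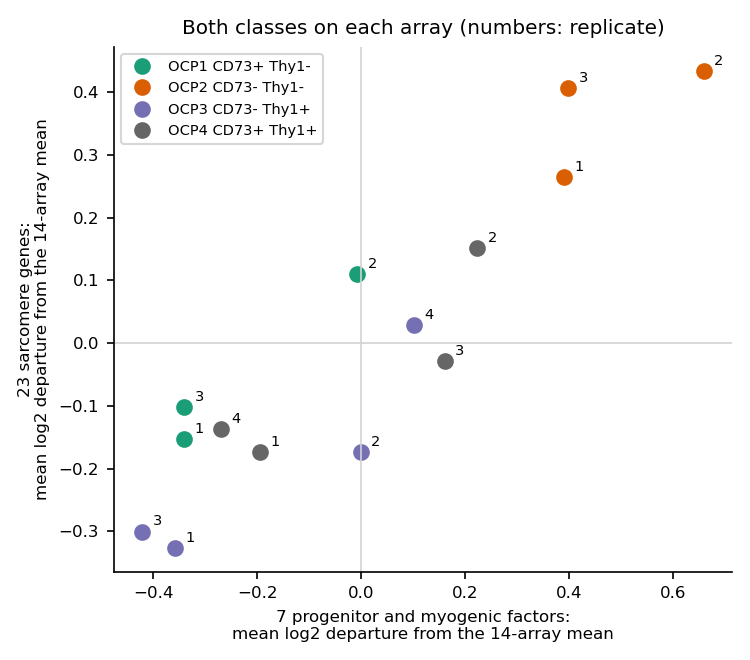
Each point is an array, placed by its mean log2 departure from the 14-array mean over the 7 progenitor and myogenic factors (x) and over the 23 sarcomere genes (y). The 3 OCP2 arrays lie at the upper right, and in OCP1, OCP3 and OCP4 the array highest for the muscle genes lies above and to the right of most others of its group.

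Within groups the muscle genes also varied together from array to array. OCP1 replicate 2 was the highest of its group for 31 of the 38 genes, OCP2 replicate 2 for 22, OCP3 replicate 4 for 30 and OCP4 replicate 2 for 31. The progenitor factors took part, with 6, 5, 6 and 5 of the 7 highest on those arrays, and so did the sarcomere genes, with 17, 11, 18 and 19 of the 23. The mean of the progenitor factors thus ranged from 8.62 to 9.14 within OCP3 and from 8.77 to 9.26 within OCP4, while the OCP2 arrays lay between 9.43 and 9.70. This spread enters the standard error of every muscle gene in these comparisons. The same counts were not taken over all genes, and the pattern was not confined to muscle genes. The summed blood cell markers were highest of their groups on the same arrays. They read 2403 on OCP1 replicate 2, 3252 on OCP2 replicate 2, 2861 on OCP3 replicate 4 and 3778 on OCP4 replicate 2. The summed endothelial markers had the same highest array in OCP1 only. The cause was not tested.

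Among OCP1, OCP3 and OCP4, few muscle genes differed. Between OCP4 and OCP3, 2 were higher in OCP4, Chrna1 and the fibre calcium pump Atp2a1 (14.2% of all genes), and 2 were higher in OCP3, Pax3 and Des (13.6%). The Atp2a1 difference was 0.39 ± 0.13 (limma adjusted p = 0.0417) and was lost under 7 alternatives, 5 of them leaving out OCP2 replicate 3, OCP3 replicate 1 or 3, or OCP4 replicate 2 or 3 (up to 0.13). Between OCP4 and OCP1, Chrna1 alone passed as higher (13.8% of all genes) and none as lower (12.4%), with 1 and 2 at an unadjusted p below 0.05. Between OCP1 and OCP3, Tnni2 and Mybph were higher in OCP1 (11.9% of all genes) and Pax3 and Des in OCP3 (12.5%). Tnni2 differed by 0.35 (limma adjusted p = 0.0173; 0.069 without OCP1 replicate 1) and Mybph, a myosin-binding protein, by 0.30 (0.0297; up to 0.151 without OCP1 replicate 1 or 2 or OCP3 replicate 1 or 3).

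None of the 23 sarcomere genes passed between OCP4 and OCP3 or between OCP4 and OCP1 in limma's test. At the adjusted p, 14.2% of all genes were higher and 13.6% lower in OCP4 than in OCP3. Against OCP1 these shares were 13.8% and 12.4%. At an unadjusted p below 0.05, 4 were higher and 0 lower in OCP4 than in OCP3, and 0 were higher and 2 lower than in OCP1. No share of all genes was taken at that threshold, so these counts show no direction for the sarcomere genes. The counts depended on OCP3 replicate 4, the highest OCP3 array: without it, 9 muscle genes were called between OCP4 and OCP3 and 9 between OCP1 and OCP3, in place of 4 and 4 (27.8% and 24.4% of all genes in either direction). Between OCP4 and OCP1 the count in either direction was 1, against 26.3% of all genes. Without OCP1 replicate 1, 2 were called between OCP1 and OCP3.

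The gates form a square, so the CD73 difference can be compared between Thy1+ cells (OCP4 minus OCP3) and Thy1- cells (OCP1 minus OCP2). In limma's interaction term, 22 of the 38 genes passed with a positive value, against 9.96% of all genes, and Des with a negative one (8.05%), which makes 23 in either direction (18% of all). The term holds the OCP2 arrays, so it is not independent of the comparisons with OCP2. Its median was 1.02 over the progenitor factors and 0.48 over the sarcomere genes, against 0.04 over all genes. For Myh3 the CD73+ group differed by -1.12 among Thy1- cells and by 0.35 among Thy1+ cells, an interaction of 1.47 ± 0.21 (limma adjusted p = 0.000185). For Chrna1 the values were -0.75 and 0.80, an interaction of 1.55 (0.000503), and for Myod1 -0.85 and 0.52, an interaction of 1.37 (0.00731). Among Thy1+ cells, the CD73 difference itself passed for Chrna1 (limma adjusted p = 0.00171) but not for Myh3 (0.0775) or Myod1 (0.0797). Pax3 was lower in CD73+ cells on both sides (-0.65 and -0.46), with an interaction of 0.19 (0.406).

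Other muscle genes, outside the 38, gave a mixed picture. Of 23 progenitor and myoblast genes, 11 were lower and 3 higher in OCP1 than in OCP2, 10 lower and 4 higher in OCP3, and 9 lower and 4 higher in OCP4. Of 37 contractile and differentiation genes, 12 were lower and 1 higher in OCP1, 14 and 2 in OCP3, and 13 and 1 in OCP4. Of all genes, 6.56% were lower and 4.43% higher in OCP1 than in OCP2, 9.48% and 6.63% in OCP3, and 13.8% and 10.4% in OCP4. Several had patterns of their own. The Notch target Heyl and the laminin receptor subunit Itga7 were highest in OCP3, at log2 differences of -2.83 and -2.53 for OCP1 minus OCP3 (limma adjusted p = 2.62e-10 and 5.12e-08), as was the calsequestrin Casq2 at -2.46 (8.1e-08); the pericyte and smooth muscle markers were also highest there, and their part was not tested.

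The adhesion protein Vcam1 was highest in OCP4, by 1.37 over OCP2 (limma adjusted p = 4.6e-08). Eya2, a transcriptional coactivator, was lower in OCP4 than in OCP2 (-1.08; limma adjusted p = 1.08e-07). The lectin Chodl was lower in OCP4 than in OCP2 as well (-1.43; limma adjusted p = 2.35e-08).

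The genes whose profile over the 14 arrays was most like the mean of the progenitor factors were Musk, the receptor kinase of the neuromuscular synapse (Pearson's r = 0.979), the bHLH repressor Msc (0.974), the acetylcholine receptor subunit Chrnb1 (0.972) and Tmem8c, the file's name for the fusion protein myomaker (0.963). The tenth was Cpa5 at 0.947. For the mean of the sarcomere genes they began with the antiviral gene Rsad2 (0.959), the embryonic myosin light chain Myl4 (0.949) and Ripply3 (0.948), and the tenth was Alpk3 at 0.929. The 14 points share the 4 groups and the arrays, so these values describe the profiles alone. Group means of Musk were 8.27, 9.08, 8.23 and 8.55 in OCP1 to OCP4, and those of Rsad2 were 7.07, 7.58, 7.01 and 7.08.

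In the authors' deposited table, fitted over all probe sets, 1 of the 38 genes passed between OCP4 and OCP1, 3 between OCP4 and OCP3, and 17 between OCP4 and OCP2, against 1, 4 and 21 over named genes here. Ckm, the muscle creatine kinase, had 2 probe sets that disagreed. The brighter differed from OCP2 by -0.23, -0.54 and -0.40 in OCP1, OCP3 and OCP4, and the dimmer by 0.24, 0.07 and 0.23. With the mean of both sets no Ckm call was kept.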

How the data were processed

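The data are 14 Affymetrix Mouse Gene 1.0 ST arrays. Per the submitters' processing notes, the authors used RMA and limma; neither versions nor an annotation build is given in the sources used here. The authors' deposited value table holds 1 linear intensity per probe set and array, so log2 was taken here before the test. A second deposited table, the authors' own comparisons, gives log2 differences, mean log2 levels, adjusted p-values and symbols; its signs run as OCP4 minus the other group, checked against the intensities. Of 35556 probe sets, 25254 had a symbol, 26 of these turned into dates and were left unnamed, and the brightest probe set of each of 21734 symbols was used. The symbol rule assigns 1 gene per probe set, so probe sets shared by related genes were not told apart.

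limma 3.58.1 (R 4.3.3, statmod 1.5.0) fitted 1 mean per group to all 14 arrays (10 residual degrees of freedom), two-sided, with Benjamini-Hochberg adjustment over all genes and a threshold of 0.05; the script was tested on simulated data. The number of arrays limits the precision. The members and lists were chosen with earlier results of these data known, and the 38 genes are a list of names. All 38 are covered in the text by counts, and those named follow the role classes. Likeness is Pearson's correlation with a class mean, the 10 highest per class being kept. Alternatives were another centring, quantile normalization again, a filter on dim probe sets, the mean of probe sets, 2-group fits, array weights, another variance prior, the replicate block and each array left out. Neither batch nor scan day was used here. Some genes of the other muscle lists are not reported here.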

Additional observations from a re-analysis of the deposited data

Results flagged for a closer look

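For 23 muscle genes, the CD73 difference among Thy1+ cells differed from that among Thy1- cells in limma's interaction term. The values are log2 differences, with the adjusted p in brackets. For the progenitor and myogenic factors they were Pax7 1.07 (0.00685), Myf5 0.96 (0.0179), Myod1 1.37 (0.00731), Cdh15 1.02 (0.0134). For thin filament genes they were Tnnt1 0.89 (0.0152), Tnnt2 0.96 (0.0386), Tnni1 0.96 (0.0105), Tnnc1 0.7 (0.00893), Tnnc2 0.48 (0.0316), Neb 0.77 (0.00703). For thick filament and M-band genes they were Mylpf 0.69 (0.0213), Myh3 1.47 (0.000185), Myh8 0.46 (0.0306), Mybph 0.47 (0.0216), Myom2 0.31 (0.0452), and at the Z-disc Actn2 0.77 (0.00338), Myoz2 0.66 (0.015). For synapse and calcium genes they were Chrna1 1.55 (0.000503), Chrnd 0.83 (0.0118), Chrng 0.78 (0.00553), Ryr1 0.73 (0.00174), Atp2a1 0.92 (0.00574). Des alone ran the other way, at Des -0.72 (0.00854). Of these 23 calls, 17 were kept under every alternative, and the highest adjusted p of the others was 0.117.

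A single array stood apart from its group in 3 of 76 sets of 4 arrays looked at, where chance alone flags about 1 in 20. Ckm read 9.96 on OCP3 replicate 4, against 9.41 to 9.49 on the other OCP3 arrays. Cacna1s, the voltage sensor of the muscle membrane, read 7.79 on OCP3 replicate 2, against 7.59 to 7.62, and 7.89 on OCP4 replicate 2, against 7.61 to 7.64. Cacna1s was one of the dim genes.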

How the results depend on the processing

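Of the 78 calls of muscle genes in the 6 pairwise comparisons, 45 were kept under every alternative and 33 were lost under at least 1, of which 20 were lost only by leaving out an array; 24 calls were lost without OCP2 replicate 2. None reversed. A further 34 differences became calls under at least 1 alternative. With arrays left out in turn, the count for OCP1 against OCP2 (20) ranged from 10 to 22 and was 12 without OCP1 replicate 3. For OCP4 against OCP3 (4) it ranged from 3 to 9, for OCP4 against OCP1 (1) from 1 to 2, the 2 without OCP4 replicate 2, and for OCP1 against OCP3 (4) from 2 to 9. For OCP3 against OCP2 (28) it ranged from 21 to 32, for OCP4 against OCP2 (21) from 14 to 24 and for the interaction (23) from 17 to 27. The progenitor median for OCP3 minus OCP2 ranged from -0.90 to -0.55, the latter without OCP2 replicate 2. Array weights gave 3 calls for OCP4 against OCP1. The causes were not tested. With the replicate number as a block, OCP4 against OCP3 gave 8 calls, 6 of them higher in OCP4; the other counts moved by less than 1.5 times. Whether the numbers pair the samples is not stated. In deviations from the group means, the 19 same-numbered pairs correlated at -0.419 to 0.395, 8 of them above 0.1. Of 14 arrays, 2 correlated best with their own number. With 3 or 4 arrays per group, these values cannot exclude a pairing. Scaling moved the median of all genes by at most 0.027. The filter on dim probe sets leaves no value for 10 of the 38 genes, Pax3, Myh8 and Myoz2 with their calls among them.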
